A study of Mus musculus with 16 samples.

Results

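Prdm1, which encodes a zinc finger transcriptional repressor, was followed with 5 genes of bipolar interneurons, Vsx1, Grm6, Pcp2, Bhlhe23 and Isl1, through adult aging of mouse rod photoreceptors. These 6 genes are among 45594 in the authors' gene table. They were listed by symbol, with results of these data already known, as a repressor set beside bipolar genes that it holds down in the developing retina. The choice rested on the levels at the 4 ages, so those levels and their fold changes are given as a description, with no test.

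The RNA came from retinas of C57BL/6J mice carrying Nrlp-GFP, a reporter in which the Nrl promoter, active in rods, drives green fluorescent protein. GFP-positive cells were taken by flow sorting at 3, 12, 18 and 24 months of age (3M, 12M, 18M and 24M), with 4 RNA-seq libraries at each age and 16 in all. All ages share the strain and the reporter, the labels name no other treatment, and later ages are set against 3M. Purity was checked by resorting, per the labels' protocols, which also speak of mice without Nrl, although every library here is labelled with the reporter strain alone. The labels do not say if a replicate holds 1 mouse or several, so the spread between libraries may be partly technical. In bulk RNA of this kind, fewer cells of a type and less RNA per cell cannot be told apart.

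Prdm1, also called Blimp1, is switched on in newly born photoreceptor precursors downstream of Otx2. Work in mouse showed that it keeps those precursors from taking the bipolar fate, and that precursors without it turn into bipolar cells. Bipolar cells are the neurons that rods and cones contact. Vsx1 is a homeodomain factor of cone bipolar types, Bhlhe23 a basic helix-loop-helix factor needed by rod bipolar cells, and Isl1 a LIM homeodomain factor of ON bipolar cells that amacrine and ganglion cells use as well. Grm6 encodes mGluR6, the glutamate receptor with which ON bipolar cells sense light, and Pcp2 a modulator of the G protein behind that receptor.

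Sequence upstream of Vsx1 and Grm6 is shown because they alone among the member promoters hold the letters AGNGAAAG (or the reverse complement CTTTCNCT). With N for any base, this pattern is looser than the core that Prdm1 protein binds. For Grm6 the sequence shown is the 250 bases before the RefSeq start on GRCm38, chr11:50850435-50850684 on the plus strand. For Vsx1 it is the 30 bases around the match, chr2:150689189-150689218 on the minus strand, since 223 of the 250 bases upstream of its RefSeq start lie inside the longer GENCODE gene. Both are printed 5′ to 3′ on the strand of the gene, with the match in capitals.
Vsx1 site: gacagctggagAGAGAAAGgggtggctagg
Grm6 upstream: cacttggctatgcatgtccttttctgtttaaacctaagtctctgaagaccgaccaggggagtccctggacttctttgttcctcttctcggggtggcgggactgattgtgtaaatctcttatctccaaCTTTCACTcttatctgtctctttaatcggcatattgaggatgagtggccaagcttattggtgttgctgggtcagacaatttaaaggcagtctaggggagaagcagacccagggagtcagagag
In Vsx1 the match was AGAGAAAG with its first base at -70 from the start, and in Grm6 it was CTTTCACT at -123. All 6 members had a RefSeq window of 250 bases before and 50 bases after the start, 9 windows in all because Pcp2 has several. The same pattern stood in 2812 of 32544 RefSeq promoters of that length (8.64%), counting both strands. The letters TAATCC, a site of the homeodomain factors Crx and Otx2, were found in Isl1 at -177 and in 7.06% of all promoters. A match is a description of letters and not of binding.

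Prdm1 (ENSMUSG00000038151, chromosome 10, 44437177 to 44528501, minus strand, GRCm38) has 3 transcripts in the count table. Prdm1-201 and Prdm1-202 are protein coding, at 5281 and 4025 exonic bases, and Prdm1-203 is a retained-intron form of 830 bases. Prdm1-201 holds a coding exon that Prdm1-202 skips, shown because the split between these transcripts is taken up further on. It lies at chr10:44456981-44457059 on the minus strand and is 79 bases long in the GENCODE M21 transcript.
Prdm1-201 exon 2: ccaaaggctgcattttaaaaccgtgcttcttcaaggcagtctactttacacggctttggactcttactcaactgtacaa
The coding part of Prdm1-201 has 856 codons and that of Prdm1-202 823, a difference of 33. At the 3′ end Prdm1-201 runs 1116 bases further.

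Prdm1 fell step by step with age and was 4.12-fold lower at 24M than in young adults. Levels are in CPM, the count of a gene relative to the library total, from estimated counts summed over transcripts and scaled between libraries. At 3M the 4 libraries held 26.1, 26.8, 25.2 and 24.6 CPM of Prdm1. At 12M they held 13.6, 12.8, 12.3 and 10.9 CPM, and at 18M 9.67, 10.0, 7.99 and 8.79 CPM. The 24M libraries held 6.03, 6.08, 4.32 and 8.40 CPM. No library of a later age reached any 3M library, and 18M lay wholly below 12M. Only 24M and 18M overlapped, since 24M replicate 4 stood above 18M replicate 3.

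Prdm1 averaged 12.4 ± 1.15 CPM at 12M, 9.11 ± 0.905 CPM at 18M and 6.21 ± 1.67 CPM at 24M, against 25.7 ± 0.975 CPM at 3M (SD, n = 4 each). In the edgeR fit over all genes the log2 fold change of Prdm1 against 3M was -1.05 (SE 0.15) at 12M, -1.49 (SE 0.15) at 18M and -2.04 (SE 0.15) at 24M. Those values are 2.07-fold, 2.82-fold and 4.12-fold lower, and the 3 comparisons share the 3M libraries. The first interval held the largest step, and the later ones gave -0.45 (18M against 12M) and -0.55 (24M against 18M) on the log2 scale. Behind the means lie 109 to 253 Prdm1 counts per library at 24M and 565 to 727 at 3M. The rank of Prdm1 moved too: the genes tested with a lower mean CPM made up 66.0% at 3M, 51.5% (12M), 45.2% (18M) and 37.7% (24M). In the authors' deposited table the log2 differences of Prdm1 were -1.11, -1.45 and -1.98 for 12M, 18M and 24M, and it is the only member among the 11826 genes there.

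**Figure D1:**
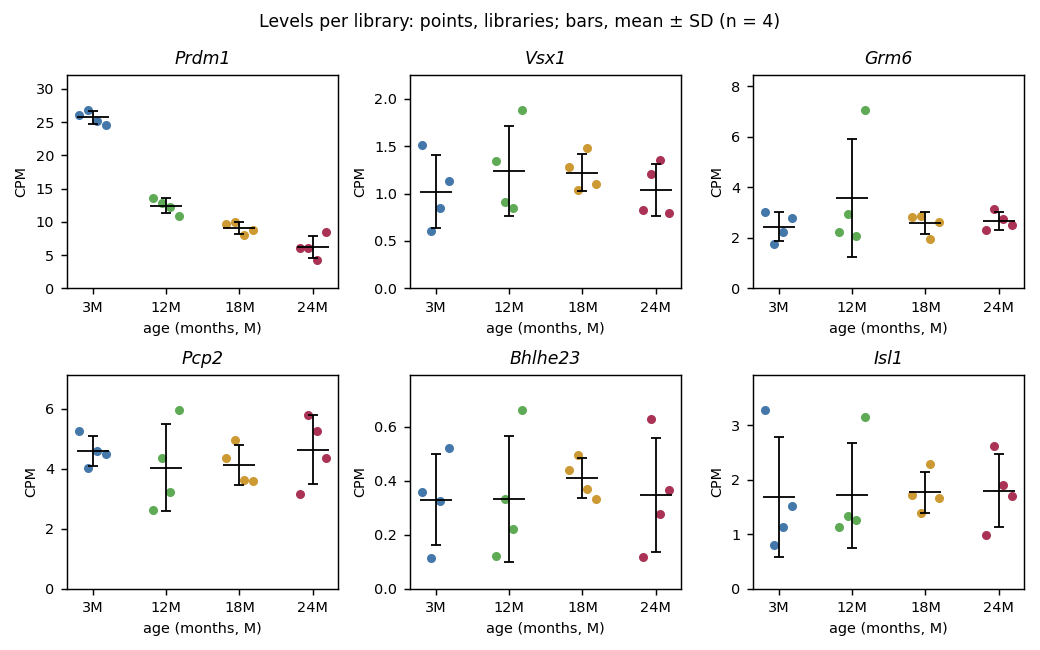
CPM of the 6 genes in each library (points) by age in months, with the mean and SD of 4 libraries as bars; each panel starts at 0 on its own scale. Prdm1 averages 6.21 CPM at 24M, against 25.7 CPM at 3M, while the points of the 5 bipolar genes overlap between all ages and 12M replicate 4 is the highest 12M point in each of them.

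The bipolar genes did not follow in the other direction. In every one of the 5 the range of the libraries at each later age overlapped the range at 3M. The ranges of Prdm1 lay below 3M without overlap at each of the 3 later ages. The share of all genes whose ranges lay apart in this way was not counted, so these ranges have no background here. Calls are another measure, from edgeR's quasi-likelihood test with Benjamini-Hochberg adjustment, at an adjusted p under 0.05. Of 17675 genes tested 0.351% were called lower at 12M, 1.02% at 18M and 1.49% at 24M. The share called higher was 0.707%, 1.37% and 2.16%, and the share called either way 1.06%, 2.4% and 3.65%. Because the members were picked on these levels, they are not counted against these shares. Of the 6 members 5 passed the filter of 1 CPM in at least 4 libraries, and Bhlhe23 did not, so its values come from a fit without the filter.

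Vsx1 (ENSMUSG00000033080, chromosome 2, 150680702 to 150689360) lay near the filter in all libraries. Its CPM was 1.51, 0.604, 0.850 and 1.13 at 3M, then 1.34, 0.914, 0.843 and 1.88 at 12M. The later libraries held 1.28, 1.04, 1.48 and 1.10 at 18M and 0.828, 1.21, 1.35 and 0.796 at 24M. The highest and the lowest Vsx1 values both belong to the first 2 ages, and no age stands apart. The log2 fold change of Vsx1 at 24M against 3M was 0.02 (SE 0.31), a 95% interval from -0.59 to 0.62, at 21 to 34 counts per library at 24M and 16 to 42 at 3M.

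Isl1 (ENSMUSG00000042258, chromosome 13, 116298281 to 116309689) was as variable within an age as between ages. It had 3.27, 0.792, 1.13 and 1.52 CPM at 3M and 1.13, 1.33, 1.25 and 3.15 CPM at 12M. At 18M the values were 1.72, 1.39, 2.29 and 1.67 CPM, and at 24M 0.985, 2.61, 1.90 and 1.69 CPM. 1 library at 3M and 1 at 12M stood above 3 CPM, and the other libraries of those ages stayed near or under 1.5 CPM. The log2 fold change of Isl1 at 24M was 0.08 (SE 0.42), with an interval from -0.74 to 0.89. With 1 library left out it ranged from -0.16 to 0.64.

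Bhlhe23 (ENSMUSG00000045493, chromosome 2, 180774381 to 180776900) was the lowest of the 6, with 3 to 13 counts in each library. Its CPM was 0.359, 0.113, 0.324 and 0.523 at 3M and 0.121, 0.332, 0.220 and 0.661 at 12M. The 18M libraries had 0.439, 0.497, 0.369 and 0.334 CPM, and those of 24M 0.118, 0.628, 0.277 and 0.365 CPM. Every age spans most of the range of the others except 18M, which lies inside them. At this depth the log2 fold change at 24M, 0.06 (SE 0.51), leaves an interval from -0.95 to 1.06. Changes of Bhlhe23 of up to about 2-fold either way are thus not excluded. Bhlhe23 shares 1023 bases with Gm14343, a noncoding transcript of the same strand at 4.52 CPM at 24M and 4.40 CPM at 3M, and reads there could be divided between them.

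Grm6 (ENSMUSG00000000617, chromosome 11, 50850685 to 50866208) showed the largest positive value among the bipolar genes, and it rests on 1 library. The Grm6 libraries held 3.02, 1.74, 2.23 and 2.79 CPM at 3M and 2.23, 2.95, 2.09 and 7.06 CPM at 12M. They held 2.84, 2.88, 1.97 and 2.63 CPM at 18M and 2.29, 3.14, 2.73 and 2.49 CPM at 24M. Without 12M replicate 4 the log2 fold change of Grm6 at 12M was -0.01, against 0.53 (SE 0.32) with it. At 24M it was 0.12 (SE 0.32), with an interval from -0.51 to 0.75.

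Pcp2 (ENSMUSG00000004630, chromosome 8, 3623371 to 3625545) was the most abundant of the 5 and also level. It had 5.25, 4.04, 4.61 and 4.49 CPM at 3M and 2.63, 4.36, 3.22 and 5.95 CPM at 12M. The 18M libraries had 4.35, 4.97, 3.61 and 3.58 CPM, and the 24M ones 3.15, 5.79, 5.27 and 4.35 CPM. The 12M and 24M libraries spread on either side of the 3M ones. The log2 fold change of Pcp2 at 24M was 0.01 (SE 0.23), with an interval from -0.44 to 0.46.

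**Figure D2:**
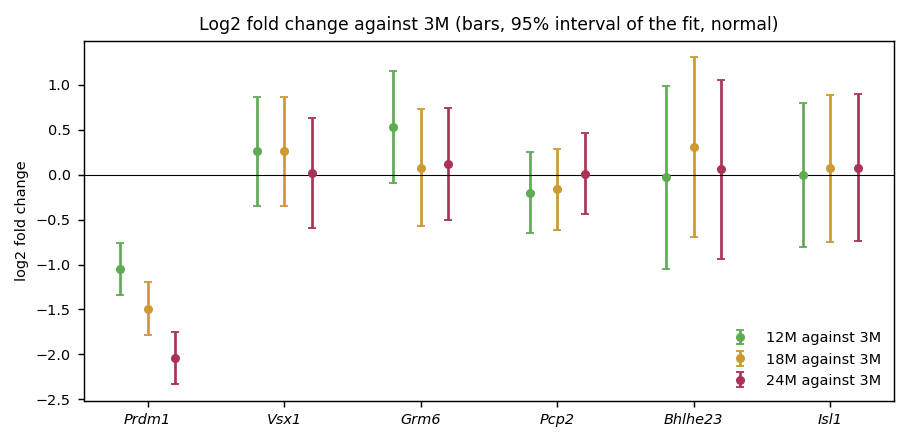
Log2 fold change of each gene at 12M, 18M and 24M against 3M in the edgeR fit, with bars for the 95% interval (normal, from the SE); the line at 0 marks no difference, and Bhlhe23 comes from the fit without a filter. Prdm1 reaches -2.04 at 24M, and every bar of the bipolar genes crosses 0.

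Divided by transcript length, Prdm1 was highest of the 6 genes at 3M and second to Pcp2 at 24M. At 24M the mean CPM per kilobase was 3.46 ± 0.864 for Pcp2, 1.48 ± 0.400 for Prdm1, 0.817 ± 0.304 for Isl1, 0.694 ± 0.0956 for Grm6, 0.276 ± 0.0725 for Vsx1 and 0.138 ± 0.0846 for Bhlhe23 (SD, n = 4). At 3M Prdm1 had 6.14 ± 0.233 CPM per kilobase and Pcp2 3.43 ± 0.372. Isl1 and Grm6 are neighbours in that order whose spreads overlap at each age, and at 12M their means stood the other way round, at 0.780 ± 0.437 CPM per kilobase for Isl1 and 0.934 ± 0.613 for Grm6. The summed CPM of the 5 bipolar genes was 10.5 ± 2.57 at 24M and 10.1 ± 2.57 at 3M, with 10.9 ± 5.31 at 12M and 10.1 ± 0.715 at 18M between them. Prdm1 CPM divided by that sum in the same library ran from 0.375 to 0.866 at 24M and from 1.95 to 3.68 at 3M. It averaged 1.33 at 12M and 0.901 at 18M.

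The fall of Prdm1 ran through all 3 of its transcripts. Prdm1-202, the main form in the young libraries, averaged 3.03 ± 0.775 CPM at 24M and 14.7 ± 0.786 CPM at 3M, 4.84-fold lower. Prdm1-201 averaged 2.69 ± 0.709 CPM at 24M and 8.58 ± 1.14 CPM at 3M, 3.19-fold lower, and the retained-intron form Prdm1-203 averaged 0.487 ± 0.276 CPM at 24M and 2.40 ± 0.627 CPM at 3M. At each transcript the highest 24M library lay below the lowest 3M library. Prdm1-201 stood at 3.65, 2.86 and 2.69 CPM at 12M, 18M and 24M, and Prdm1-202 at 8.06, 5.46 and 3.03 CPM. Their courses over 12M and 18M were not tested against each other.

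Prdm1 was chosen on its level, with its transcripts named beside it, and the split of its counts between them was tested. Because those transcripts were part of the choice, the p-values are read as a description only. Prdm1-201 held 41.6%, 41.7%, 46.6% and 44.0% of the Prdm1 counts in the 24M libraries and 30.4%, 33.4%, 39.8% and 30.2% in the 3M libraries. All 4 of the 24M shares lay above all 3M shares, by 10.0 percentage points on average (43.5 ± 2.33% against 33.4 ± 4.46%, SD, n = 4). A two-sided exact permutation test gave p = 0.0286, the smallest that 4 libraries against 4 can give, and 0.0857 after Benjamini-Hochberg adjustment over the 3 transcripts. The share of Prdm1-202 was 49.0 ± 3.71% at 24M and 57.2 ± 2.09% at 3M (exact p = 0.0571, adjusted 0.0857), and that of Prdm1-203 7.55 ± 2.96% at 24M and 9.34 ± 2.40% at 3M (exact p = 0.3429). After adjustment none of the 3 passed 0.05. At the ages between, Prdm1-201 held 29.8 ± 9.49% (12M) and 31.2 ± 4.16% (18M), with 1 library at 12M at 42.2%, inside the 24M range.

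**Figure D3:**
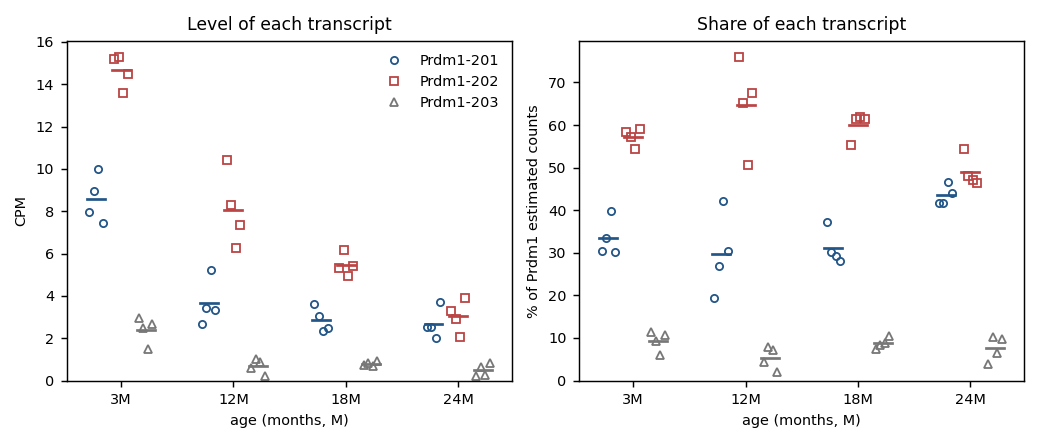
CPM of the Prdm1 transcripts (left) and their share of Prdm1 estimated counts in percent (right), by age; symbols are libraries and short lines the means of 4. All forms fall, and at 24M the shares of Prdm1-201 (41.6% to 46.6%) and Prdm1-202 (46.4% to 54.4%) nearly meet.

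For 2 of the bipolar genes the transcripts limit what the gene level says. Of all Pcp2 counts 75.3% were assigned to Pcp2-207, a retained-intron form of 1606 bases. Pcp2 lies over its whole length of 2175 bases opposite Pet100, a gene for an assembly factor of mitochondrial cytochrome oxidase, and 941 of the 1606 bases of Pcp2-207 lie over Pet100 exons. Pet100 had 13.0 ± 3.66 CPM at 24M and 15.8 ± 1.79 CPM at 3M. The library kit keeps strand, but the use of strand in counting is not stated in those sources. How much of the Pcp2 level is Pet100 RNA was not tested.

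Grm6 counts moved between transcripts from library to library. Grm6-201, the protein-coding form of 10 exons, held 39.2% of all Grm6 counts, the processed transcript Grm6-202 36.9% and the protein-coding Grm6-204 20.4%. Grm6-204 was at 0 in 10 libraries, all 4 of 3M among them, and had 109.2 counts in 12M replicate 4 and 52.7 in 24M replicate 2. In both of those libraries, and in 12M replicate 1 and 18M replicate 3, Grm6-201 was at 0 instead. Grm6-201 and Grm6-204 span nearly the same stretch of the gene (4291 and 4330 exonic bases), so the split between them is uncertain. Grm6 also lies over 1251 bases opposite the antisense gene Gm12660, which had 0.103 CPM at 24M and 0.0779 CPM at 3M.

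**Figure D4:**
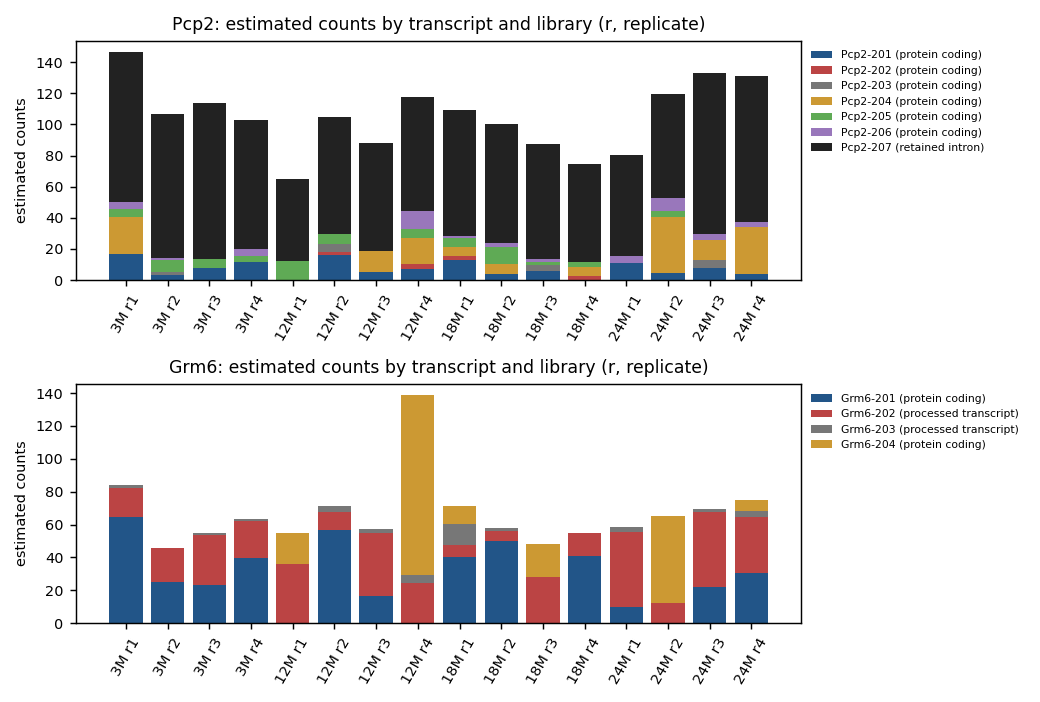
Estimated counts of Pcp2 (top) and Grm6 (bottom) in each of the 16 libraries, stacked by transcript, with the annotated type in the legend. Pcp2-207 fills most of each Pcp2 bar, and the tall Grm6 bar of 12M replicate 4 is mostly Grm6-204, at 109.2 counts.

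12M replicate 4 was the highest 12M library for all 5 bipolar genes and the lowest for Prdm1. Its Isl1 level was 3.15 CPM, and the other 12M libraries had 1.13 to 1.33 CPM. Markers of several other cell types were high in the same library: 13 Müller glia markers summed to 477 CPM there and 130 to 203 in the other 12M libraries, 11 cone markers to 138 and 58.5 to 79.0 CPM, and 6 endothelial and pericyte markers to 48.4 and 26.0 to 33.1 CPM. Rod markers were high as well, at 53000 CPM against 40300 to 41400. Microglia and blood markers, at 8.08 CPM, lay within the 7.93 to 9.43 CPM of the other 12M libraries. The 26 further bipolar markers summed to 445 CPM there and 429 to 441 CPM in the other 12M libraries. The part of these cells and of the library itself in the bipolar values was not tested.

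Within ages, the libraries with more of 1 bipolar gene tended to have more of the others. With the mean of each age removed from log2 CPM, the 10 pairs of bipolar genes had Pearson r from 0.479 to 0.843 and Spearman coefficients from 0.462 to 0.853 over 16 libraries. A permutation of libraries within ages, a test not planned beforehand for these pairs, gave an adjusted p under 0.05 for 8 of the 10 pairs by r. It did so for 8 by the Spearman coefficient too, and the adjusted p for r ran from 0.0012 to 0.11. Vsx1 and Isl1 had the highest r (0.843, adjusted permutation p = 0.0020), and Grm6 and Bhlhe23 the highest Spearman coefficient (0.853, adjusted permutation p = 0.00080). With the 2 libraries most distant from the first gene's median left out of each pair, r ran from 0.159 to 0.783, with the lowest for Vsx1 and Pcp2. Without 12M replicate 4 it ran from 0.258 to 0.787, and r with libraries left out was not tested.

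Prdm1 did not show that relation. Its within-age r with Vsx1 was -0.485 (permutation p = 0.026, adjusted over the 5 genes 0.13), with a Spearman coefficient of -0.500 (permutation p = 0.065, adjusted 0.32). For Isl1, Pcp2, Grm6 and Bhlhe23 r was -0.275, -0.245, -0.219 and -0.098, with adjusted permutation p from 0.54 to 0.83, and the Spearman coefficient ran from -0.391 to -0.076 with adjusted permutation p from 0.36 to 0.80. Without the libraries 24M replicate 3 and 24M replicate 4, which lie farthest from the median, r was -0.405 for Vsx1, -0.486 for Isl1, -0.217 for Pcp2, -0.356 for Grm6 and -0.382 for Bhlhe23. None passed the threshold, which does not show that Prdm1 and these genes are unrelated.

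No gene on the list of further bipolar markers passed the edgeR test. Of 26 further bipolar markers 19 were tested, and edgeR called 0 at each later age. At an unadjusted p under 0.05 there were 3 at 12M, 1 at 18M and 0 at 24M, and DESeq2 called 0 as well. Car8, a carbonic anhydrase-related protein, had 0.29 at 12M on the log2 scale (edgeR adjusted p = 0.34), and was called higher in 3 alternative analyses, limma on the authors' normalized CPM and edgeR on the 13 libraries of that table, at an adjusted p of up to 0.027. The median log2 fold change of these 19 was 0.215 at 12M, 0.134 at 18M and 0.091 at 24M, beside -0.001, 0.008 and 0.008 for all genes. The summed level of the 26 markers ran from 372 to 434 CPM at 24M and from 408 to 450 at 3M, and none was at 0 in all libraries. Prkca, protein kinase C alpha of rod bipolar cells, gave the largest share of it, at 193 ± 15.1 CPM at 24M and 209 ± 7.04 CPM at 3M. Lrit3, another of the 26, had 92.7 ± 7.48 CPM at 24M and 99.4 ± 3.88 CPM at 3M. The sum thus mostly follows Prkca and Lrit3, far above Grm6 at 2.66 CPM at 24M and 2.44 CPM at 3M. Prkca overlaps genes on the opposite strand, Apoh among them, from which its counts may not be separate. How much of the sum came from bipolar cells was not tested.

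Of 15 genes in the mGluR6 cascade, the machinery around Grm6, edgeR called 2 higher and 0 lower at 24M. Over all genes it called 2.16% higher and 1.49% lower at that age. Gnb3, a G protein beta subunit of ON bipolar cells and cones, averaged 31.5 ± 8.05 CPM at 24M and 16.2 ± 1.36 CPM at 3M, 0.96 on the log2 scale (edgeR adjusted p = 0.0038). Cacna1s, a voltage-gated calcium channel subunit, averaged 9.31 ± 1.14 CPM at 24M and 5.84 ± 0.593 CPM at 3M, 0.67 on the log2 scale (edgeR adjusted p = 0.030). The call of Cacna1s ended in 8 alternative analyses, at an adjusted p of up to 0.10. Cone markers, the other known home of Gnb3, summed to 63.9 to 92.7 CPM at 24M and 52.0 to 114 at 3M. The part of cone cells in the Gnb3 level was not tested. At 12M and 18M edgeR called 0 of the 15, with 0 at an unadjusted p under 0.05, and DESeq2 called 0.

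Among 22 photoreceptor transcription factors and fate regulators around Prdm1, 19 were tested and edgeR called 1 lower at 24M, beside 1.49% of all genes. Rorb, a nuclear receptor that acts upstream of Nrl in mouse photoreceptors, averaged 242 ± 63.0 CPM at 24M and 461 ± 70.9 CPM at 3M, -0.93 on the log2 scale (edgeR adjusted p = 0.031). That call ended when any 1 of the 3M or 24M libraries was left out and with a replicate block, at an adjusted p of up to 0.11. Otx2, the activator of Prdm1, stood at 149 ± 4.02 CPM at 24M and 146 ± 6.80 CPM at 3M, a log2 fold change of 0.03. For the rod factors Crx, Nrl and Nr2e3 the 24M values were -0.20, -0.33 and 0.01, and for Gnat1, the alpha subunit of rod transducin, -0.33, none of them called by edgeR. Crx, Nrl and Gnat1 were called lower at 24M in 3 alternative analyses each (limma on the authors' normalized CPM with either pseudocount, and edgeR on its 13 libraries), at an adjusted p of up to 0.019, 0.00076 and 0.0065.

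Of 9 corepressors that bind Prdm1 protein, edgeR called 1 higher (Tle1) and 1 lower (Tle2) at 24M. Over all genes it called 2.16% higher and 1.49% lower at that age. The median log2 fold change of the 9 was -0.064, beside 0.008 for all genes. DESeq2 called 1 higher and 2 lower, with the histone deacetylase Hdac2 added (-0.29 on the log2 scale, edgeR adjusted p = 0.088). Tle1, a Groucho corepressor, averaged 13.5 ± 1.71 CPM at 24M and 6.54 ± 2.22 CPM at 3M, 1.04 on the log2 scale (edgeR adjusted p = 0.0048). At 18M Tle1 had 0.73 on the log2 scale (edgeR adjusted p = 0.077), and 6 alternative analyses called it higher, DESeq2 among them (adjusted p = 0.018). Tle2, of the same family, fell at each later age, with log2 fold changes of -0.87 at 12M (edgeR adjusted p = 0.028), -1.29 at 18M (0.00077) and -0.90 at 24M (0.0086). Tle2 averaged 3.87 ± 0.220 CPM at 24M and 7.23 ± 2.03 CPM at 3M. Its 12M call ended in 7 alternative analyses, and at 24M the authors' gene CPM gave an adjusted p of 0.14. Both genes overlap an antisense gene (Gm11250 for Tle1, Gm15917 for Tle2), from which the counts may not be separate.

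No relative of Prdm1 passed the edgeR test. Of 14 other PRDM genes 10 were tested and edgeR called 0 at each later age, with 1 at an unadjusted p under 0.05 at each, and DESeq2 called 0. Prdm8, a PRDM gene that bipolar cells use, gave 0.30 at 24M on the log2 scale (edgeR adjusted p = 0.27). It was called higher in 3 alternative analyses, limma on the authors' normalized CPM with either pseudocount and edgeR with each library's slope of log2 CPM, less the gene's mean, on log2 transcript length as a covariate, at an adjusted p of up to 0.049. Of 10 genes that Prdm1 represses in mouse lymphocytes or germ cells, 4 passed the filter and edgeR called 0 of them at each later age, with 0 at an unadjusted p under 0.05 and 0 by DESeq2. These were Bcl6, Ciita, Spib and Bach2, with 24M log2 fold changes of 0.04, -0.05, 0.27 and -0.29.

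Over the lists together 132 distinct genes were tested, of which edgeR called 1 at 12M, 1 at 18M and 8 at 24M (6.06%, beside 3.65% of all genes). The lists were chosen with earlier results of these data known, so their calls, shares and p-values are read as a description only. The remaining edgeR calls at 24M were Pdc and Gngt1 among 16 rod markers, which fell, and Onecut3 among 5 tested horizontal cell markers, which rose. Pdc, phosducin of the rod G protein, gave -0.94 on the log2 scale (edgeR adjusted p = 0.00026). Gngt1, the transducin gamma subunit, had -0.46 (0.046), and Onecut3 had 0.46 (0.028), and both of these calls ended in other analyses (14 and 6 of them). Of the 16 rod markers 1 had a log2 fold change above 0 at 24M, and 8 had an unadjusted p under 0.05. DESeq2 called 5 of them lower at 24M, adding Gnb1, Pde6a and Rcvrn, and Pdc lower at 12M and 18M as well. For 11 cone, 15 amacrine and ganglion, 13 Müller glia, 3 microglia and blood, and 4 endothelial and pericyte markers tested, edgeR and DESeq2 called 0 at each later age. At an unadjusted p under 0.05 edgeR had 1 gene of these lists at 12M, 3 at 18M and 2 at 24M, the last both Müller markers.

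The sorted cells carried the rod signature, and traces of other cells. Total estimated counts were 20579144 to 28791777 per library. Rod markers summed to 36100 to 47500 CPM at 24M and 46800 to 51800 at 3M, and cone markers stayed far below them. Müller glia markers, which sum to 171 to 297 CPM at 24M and 131 to 262 at 3M, had a median log2 fold change of 0.439 with 12 of 13 above 0. Their part in the bipolar values was not tested. No marker of any list was at 0 in all 16 libraries.

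Over the 16 libraries the protein-coding genes most like Prdm1 in log2 CPM were Sestd1 (Pearson r 0.961), Serinc5 (0.953), Gulp1 (0.953), Rasa2 (0.939), Mtus1 (0.937) and Bhlhb9 (0.935), out of 13403 ranked. Since the ages form separate levels, these r describe the age course and carry no test. Gulp1, an adaptor of engulfment in phagocytes, averaged 5.71 ± 1.16 CPM at 24M and 22.6 ± 2.41 CPM at 3M. Sestd1, a phospholipid-binding protein, averaged 2.47 ± 0.628 CPM at 24M and 9.99 ± 1.09 CPM at 3M. Serinc5, a membrane protein that restricts retroviruses, went lowest relative to its start, at 2.54 ± 0.0506 CPM at 24M against 13.5 ± 1.5 CPM at 3M. Rasa2, a Ras GTPase-activating protein, averaged 28.2 ± 4.39 CPM at 24M and 52.6 ± 0.743 CPM at 3M. None of the 6 lies on chromosome 10 with Prdm1.

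The most opposite courses were those of Tmem116 (r -0.963), Ptprn (-0.961), Tap2 (-0.959) and Cacna2d2 (-0.958). Tmem116 averaged 32.2 ± 2.18 CPM at 24M and 8.36 ± 0.609 CPM at 3M. Tap2, a subunit of the peptide transporter of antigen presentation, averaged 8.49 ± 1.30 CPM at 24M and 2.41 ± 0.398 CPM at 3M. Ptprn, a protein of secretory vesicles, averaged 37.3 ± 5.13 CPM at 24M and 12.1 ± 0.525 CPM at 3M, and Cacna2d2, an auxiliary subunit of calcium channels, 23.4 ± 0.801 CPM at 24M and 11.2 ± 0.263 CPM at 3M. None of these 10 genes is a bipolar gene of the lists.

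**Figure D5:**
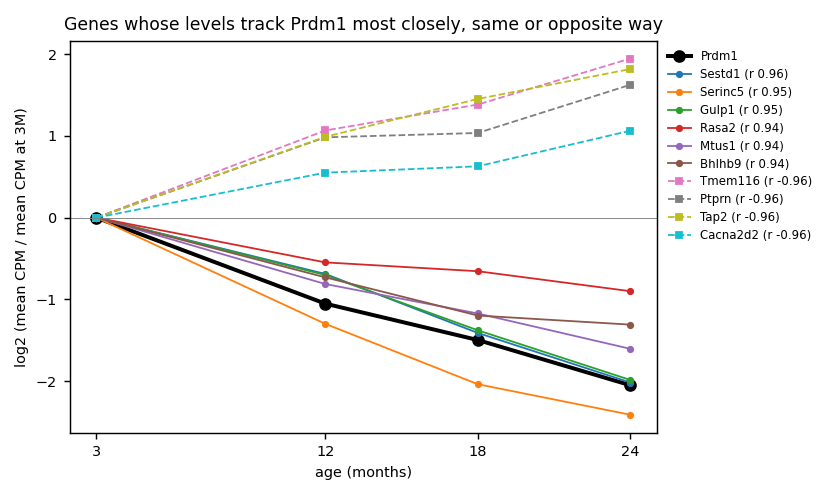
Log2 ratio of the mean CPM at each age to the mean at 3M, by age in months, for Prdm1 (thick line), the 6 genes with the highest r (solid) and the 4 with the lowest (dashed); lines join means of 4 libraries. Serinc5 falls further than Prdm1 and Rasa2 less far, and Tmem116 and Tap2 rise the most of the 4 dashed genes.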

How the data were processed

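The deposited files hold estimated counts per transcript, which per the submitters' processing notes go with kallisto 0.42.5, edgeR 3.13.9, limma 3.32.2 and GRCm38.p4. The authors' 2 gene tables hold CPM and normalized CPM, used here as a signal since their columns sum to 936588 to 1055611 (CPM) or cover part of the genes. The normalized table holds 13 libraries, without 12M replicate 4, 18M replicate 3 and 24M replicate 3. Log2 differences, an F score and p-values stand in a table of comparisons by the authors, per the file headers. Of 113468 transcripts 111801 matched GENCODE M21, and the rest held 0.744% to 1.106% of counts. Estimated counts were summed to 44952 genes, rounded, and fitted with edgeR 4.0.16 in R 4.3.3 (quasi-likelihood, TMM, a mean per age over 16 libraries, at least 1 CPM in at least 4 libraries, Benjamini-Hochberg over 17675 genes, 13404 of them protein coding). Log2 CPM used a pseudocount of 0.5. DESeq2 1.42.0, limma 3.58.1, other filters, libraries left out and a replicate block were alternatives. Permutation tests within ages used 100000 resamples drawn with NumPy 2.4.6, and those of transcript shares used exact enumeration in SciPy 1.17.1. The fit was tested on simulated data. Total counts were 20579144 to 28791777 per library, and the labels give no batch.

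The 6 members and the 13 lists were chosen with earlier results of these data known. Named genes were all members, in each list the 4 tested genes with the smallest p at 24M and up to 6 called genes, the 3 highest markers of each cell type, and 7 rod and fate genes in any case, of which the text gives those its results turn on; some are not reported here. The genes most like Prdm1 were the 6 highest and 4 lowest by r. Promoter windows are from RefSeq on GRCm38.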

Additional observations from a re-analysis of the deposited data

Results flagged for a closer look

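Within the 4 libraries of each age, 36 groups of values were searched for a library far from the other 3, and chance alone flags about 1 group in 20. In 2 groups the gap to the nearest library exceeded Dixon's critical value for 4 samples.

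Isl1 stood at 3.15 CPM in 12M replicate 4 and at 1.13 to 1.33 CPM in the other 12M libraries, a gap of 0.903 of the range. The share of Prdm1 counts on Prdm1-202 was 55.3% in 18M replicate 1 and 61.4% to 62.0% in the other 18M libraries, a gap of 0.904 of the range.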

How the results depend on the processing

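No called result changed its sign under the alternatives run. Prdm1 at 24M ranged from -2.23 to -1.72 on the log2 scale over 26 alternatives, at 18M from -1.55 to -1.29 and at 12M from -1.24 to -0.99; the -1.72 came from the authors' normalized CPM with a pseudocount of 2. Grm6 at 12M, 0.53 with all libraries, ranged from -0.01 to 0.73 with 1 library left out and was -0.01 when the 3 libraries outside the authors' normalized table were left out (13 libraries). Isl1 moved by more than its SE at each age. With 1 library left out it ranged from -0.45 to 0.57 at 12M, -0.17 to 0.63 at 18M and -0.16 to 0.64 at 24M. The 0.57 came without 3M replicate 1. Vsx1, Pcp2 and Bhlhe23 moved by less than Isl1 at each age.

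Counts of genes called depended on the libraries and the tool. At 12M they were 187, with 368 by DESeq2, 3924 and 3944 by limma on the authors' normalized CPM (pseudocounts 0.5 and 2), 5079 in the 13 libraries, and 120 to 675 with 1 library left out, where 675 (316 higher, 359 lower) is without 12M replicate 4, 120 without 3M replicate 3 and 121 without 12M replicate 3. At 18M they were 424, with 665 by DESeq2, 830 in the 13 libraries, and 277 (without 3M replicate 3) to 646 (without 12M replicate 4). At 24M they were 645, with 2519 and 2540 on the normalized CPM, 3225 in the 13 libraries and 452 to 926 with 1 library left out. The share called higher at 12M, 66.8%, was 53.1% on the normalized CPM and 47.1% in the 13 libraries, and at 24M, 59.1%, it was 46.5% in the 13. The cause was not tested.

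List genes called at 12M were 1, with 2 by DESeq2, 21 on the normalized CPM at either pseudocount, 26 in the 13 libraries, 0 on the authors' gene CPM, 0 with the length slope as a covariate, and 0 to 1 with 1 library left out. At 18M they were 1, with 3 by DESeq2, 2 on the authors' gene CPM, 4 in the 13 libraries and 1 to 2 with 1 library left out (2 without 3M replicate 4). At 24M they were 8, with 24 and 25 on the normalized CPM, 26 in the 13 libraries and 4 to 10 with 1 library left out, at 4 or 5 without any of 3M replicates 1, 2 and 4 and 24M replicates 1, 2 and 4.

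Same-numbered libraries of different ages did not deviate together: r ran from -0.572 to 0.520, and 3 of 16 libraries correlated best with their own number. With the replicate number as a block 159, 332 and 540 genes were called at 12M, 18M and 24M, and 1, 2 and 5 list genes. The analyses on the authors' gene CPM, the 13 libraries and the length slope, and the relations without 12M replicate 4, were chosen after seeing the data. The tests between pairs of bipolar genes were not among those planned. At 3 to 13 counts per library for Bhlhe23 and 16 to 42 for Vsx1, depth limits what could be seen.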

Other observations

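Prdm9, known for placing meiotic breaks in germ cells, was the second most abundant of the 14 PRDM genes other than Prdm1, a gene named after its values were seen. It had 98.6 ± 16.3 CPM at 24M and 96.6 ± 6.19 CPM at 3M (SD, n = 4), beside 112 ± 5.87 CPM at 24M and 120 ± 8.33 CPM at 3M for Prdm2. Of the Prdm9 counts 46.4% were on 3 retained-intron forms and 46.0% on 2 protein-coding transcripts, with 41.6% on the longest of these, of 3438 exonic bases. At the other end, Prdm13, Prdm14, Prdm6 and Prdm16 averaged under 1 CPM over the 16 libraries.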
